A study of Homo sapiens with 16 samples.

Results

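The CDK inhibitor family was followed by gene symbol through the RNA-Seq count table: *CDKN1A*, *CDKN1B* and *CDKN1C* of the CIP/KIP branch and *CDKN2A*, *CDKN2B*, *CDKN2C* and *CDKN2D* of the INK4 branch, 7 of the 34228 genes listed. The table holds polyA RNA of 8 libraries, 2 for each of 4 groups. The cells were 451Lu-R (MITFhi/AXLlo) and 1205Lu-R (MITFlo/AXLhi), human melanoma lines that had become resistant to BRAF inhibitors (BRAFi). Each line received the vehicle DMSO or corin, a bivalent inhibitor of the CoREST complex that blocks its histone deacetylases and the demethylase LSD1, at 2.5 μM for 24 h by the study's account. Resistance had been raised by long culture in rising doses of the BRAFi PLX4032, 1205Lu-R in the study's own laboratory and 451Lu-R elsewhere. By the study's account, the resistant lines were cultured in PLX4032 to keep up their resistance. Whether it was removed before these treatments is not stated in the sources used here. The libraries used here are its arms that were given DMSO or corin without added PLX4032. Its arms with added PLX4032 were not analysed here.

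CDK inhibitors are the brakes of the cell cycle. INK4 proteins bind CDK4 and CDK6 and keep D-type cyclins away from them. CIP/KIP proteins bind cyclin-CDK complexes and shut off CDK2. When the kinases are free they phosphorylate RB1, E2F factors are released and cells enter S phase. In melanoma, loss of *CDKN2A* is a classic inherited and acquired lesion. That gene encodes both p16INK4a and, in another reading frame, ARF, and a count per gene cannot separate the transcripts.

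Corin changed the levels of most measured members in both lines. *CDKN1A*, which encodes p21, rose 109-fold in 451Lu-R and 4.52-fold in 1205Lu-R. *CDKN1C* and *CDKN2D* rose in both lines as well, *CDKN1B* and *CDKN2C* fell in both, and *CDKN2B* rose 5.78-fold in 451Lu-R. *CDKN2A* and *CDKN2B* had 0 counts in all 4 libraries of 1205Lu-R, under DMSO and under corin alike.

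The promoters of the pair that rose most in 451Lu-R, *CDKN1A* and *CDKN2B*, and of the pair that fell, *CDKN1B* and *CDKN2C*, are shown because these genes moved together in opposite directions. Each sequence is the 250 bases before the RefSeq start site (GRCh38.p14), written 5′ to 3′ on the gene's strand. Capitals mark GGGCGG, the core of Sp1 and KLF sites, and CCAAT, the core of NF-Y sites, on either strand. The windows are chr6:36678464-36678713 (plus strand), chr9:22009306-22009555 (minus), chr12:12717118-12717367 (plus) and chr1:50969995-50970244 (plus).
CDKN1A: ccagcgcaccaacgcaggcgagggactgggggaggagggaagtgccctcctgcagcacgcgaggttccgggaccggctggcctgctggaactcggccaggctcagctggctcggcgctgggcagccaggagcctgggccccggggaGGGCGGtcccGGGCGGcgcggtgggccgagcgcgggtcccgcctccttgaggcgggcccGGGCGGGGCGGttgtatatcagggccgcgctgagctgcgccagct
CDKN2B: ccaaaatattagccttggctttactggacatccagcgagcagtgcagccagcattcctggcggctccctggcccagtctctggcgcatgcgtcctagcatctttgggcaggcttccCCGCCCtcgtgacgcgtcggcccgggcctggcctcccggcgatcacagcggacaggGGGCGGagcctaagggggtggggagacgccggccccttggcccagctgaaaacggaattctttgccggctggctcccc
CDKN1B: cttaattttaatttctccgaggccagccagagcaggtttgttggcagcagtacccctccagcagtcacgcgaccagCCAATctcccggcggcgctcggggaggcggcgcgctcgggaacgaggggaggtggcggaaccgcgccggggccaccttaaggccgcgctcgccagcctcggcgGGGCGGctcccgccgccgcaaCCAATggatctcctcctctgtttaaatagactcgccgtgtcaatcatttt
CDKN2C: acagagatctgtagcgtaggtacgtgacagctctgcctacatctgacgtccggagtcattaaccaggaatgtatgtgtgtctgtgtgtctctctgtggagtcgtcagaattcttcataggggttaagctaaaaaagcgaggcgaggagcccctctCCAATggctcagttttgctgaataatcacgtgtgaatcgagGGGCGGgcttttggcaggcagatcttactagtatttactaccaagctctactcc

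The *CDKN1A* window held 4 GGGCGG matches, of which the pair nearest the start overlap each other, and no CCAAT. *CDKN2B* held 2 GGGCGG matches and no CCAAT, *CDKN1B* held 1 and 2, and *CDKN2C* held 1 and 1. In windows of 300 bases, which add the first 50 bases after the start, GGGCGG was found in 7 of the members' 9 windows, against 45.0% of the 35116 promoters in the RefSeq table. CCAAT was found in 3 of the 9, 1 each of *CDKN1B*, *CDKN2C* and *CDKN2D*, against 34.6% of all promoters. It was therefore present in both genes that fell and in 1 that rose. Searched on both strands, the CRE TGACGTCA, the AP-1 site TGANTCA and the TATA box TATAAA matched no window of a member, against 1.85%, 7.71% and 11.5% of all promoters. The E-box CACGTG matched *CDKN2C* alone (7.26% of all promoters) and the E2F letters TTTNNCGC matched *CDKN2D* alone (6.89%). The 9 windows belong to 6 members, since *CDKN2A* has 2 and *CDKN2C* has 3, and *CDKN1C* has none in this table. The *CDKN2C* window at a start 1539 bases from the printed start held 6 GGGCGG matches and no CCAAT. That of *CDKN1A* held 4 GGGCGG matches. The counts for *CDKN2C* thus depend on the start taken. In the printed windows CCAAT was found only in the genes that fell, but *CDKN2D*, which rose, also has it in its 300-base window. A contrast between genes that rose and fell was not tested.

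Library totals ran from 9516687 to 11797788 estimated counts, so 3 counts, taken here as the lowest level told from 0, correspond to 0.254 to 0.315 CPM (counts scaled to a library total of 1000000). The 2 libraries of a group differed little more than sampling would give (chi-square over its degrees of freedom, 1.34 to 1.40). The study describes its data in general as representative of independent experiments. For these libraries the sources used here do not say whether replicates were separate cultures, so p-values measure only the spread between them, which may be technical. The labels could be checked against marker genes. *PMEL*, a melanosome gene, averaged 8437 CPM in 451Lu-R under DMSO and 0.469 CPM in 1205Lu-R, and the lineage factor *SOX10* averaged 758 CPM and 0. *TYR* was also at 0 in 1205Lu-R, whose *AXL* averaged 962 CPM. Of the melanocyte markers only *MITF*, at 7.18 CPM, was above 1 CPM in that line under DMSO. Markers of other cell types also moved with corin. From DMSO to corin, the summed mean CPM of 4 epithelial markers went from 4.14 to 8.93 in 451Lu-R and from 9.76 to 24.6 in 1205Lu-R, nearly all of it *KRT8*. That of 3 endothelial markers went from 1.41 to 8.74 and from 10.8 to 25.8, most of the change in *VWF*. That of 4 fibroblast markers went from 52.3 to 155 in 451Lu-R, with *LUM* at 47.4 and 103 and *COL1A1* at 0.637 and 40.3, and from 197 to 103 in 1205Lu-R. The immune markers, led by *CD14*, summed to at most 1.71 CPM in any group, with *PTPRC* at or under 0.177 CPM, and *EPCAM* was at 0 in all DMSO libraries and at or under 0.354 CPM with corin. Their part in the results was not tested. In bulk RNA, fewer cells that express a gene and less RNA per cell cannot be told apart.

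*CDKN1A* encodes p21, the CIP/KIP member best known for stopping the cycle under stress. In 451Lu-R its counts were 28 and 29 under DMSO and 3361 and 2831 under corin. In 1205Lu-R they were 1141 and 1113 under DMSO and 4651 and 5546 under corin. The groups did not overlap in either line, and 1205Lu-R with DMSO lay above 451Lu-R with DMSO and below 451Lu-R with corin. On the CPM scale the means were 2.78 ± 0.31 (SD, n = 2) and 284 ± 1.29 in 451Lu-R. For 1205Lu-R they were 104 ± 1.23 and 494 ± 7.30. The log2 fold change was 6.77 in 451Lu-R (edgeR quasi-likelihood test with Benjamini-Hochberg adjustment, as for all adjusted p-values here, adjusted p = 1.92e-23). With libraries left out singly it ran from 6.65 to 6.88. It was 2.18 ± 0.035 (SE) in 1205Lu-R (edgeR adjusted p = 1.10e-22). Each SE was taken from the fold change and the F statistic of its test. For large changes from few counts it can fall below counting error. It did so for *CDKN1A* in 451Lu-R, where none is given. By size of increase the gene ranked 395 among the 14530 genes tested in 451Lu-R, and 1543 among 14563 in the other line.

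*CDKN1B* encodes p27, which holds CDK2 in resting cells and is controlled in large part by protein turnover. Its counts were 789 and 661 under DMSO and 435 and 364 under corin in 451Lu-R, and 515 and 507 against 344 and 391 in 1205Lu-R. Every corin library lay below every DMSO library of its line. In log2 units the gene fell by 0.84 in 451Lu-R (SE 0.064, edgeR adjusted p = 2.82e-10) and by 0.48 in 1205Lu-R (SE 0.068, edgeR adjusted p = 1.57e-06).

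*CDKN1C* encodes p57, the imprinted member of the branch. Its counts were 135 and 106 under DMSO and 349 and 305 under corin in 451Lu-R. In 1205Lu-R they were 6 and 4 under DMSO, close to the floor of 3 counts, and 33 and 40 under corin. The groups again did not overlap within a line, yet 1205Lu-R with corin stayed below 451Lu-R with DMSO. The log2 fold change was 1.46 ± 0.099 in 451Lu-R (edgeR adjusted p = 4.96e-11) and 2.84 ± 0.41 in 1205Lu-R (edgeR adjusted p = 1.49e-06), where the few counts left a 95% interval from 2.02 to 3.71.

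**Figure D1:**
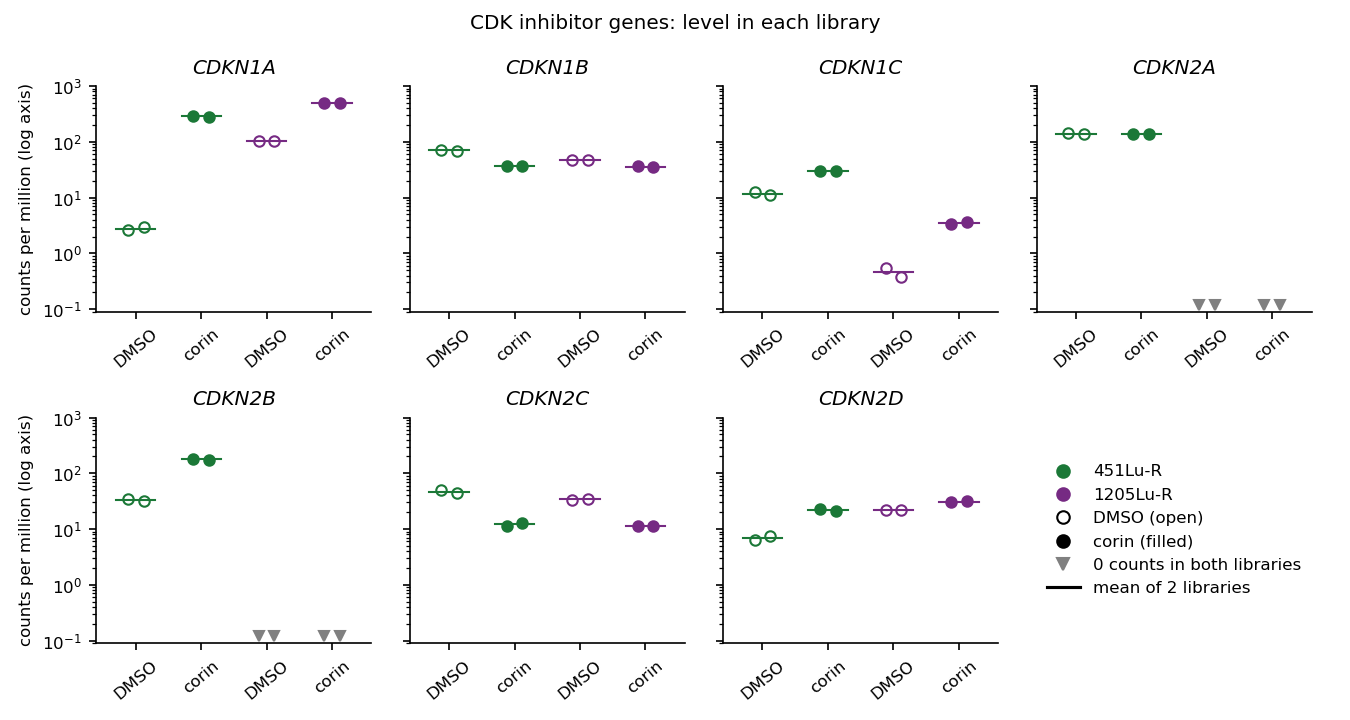
CPM of the 7 CDK inhibitor genes in each library on a log axis, with open points for DMSO, filled points for corin, green for 451Lu-R, purple for 1205Lu-R and a line at the mean of 2 libraries. Grey triangles mark *CDKN2A* and *CDKN2B* in 1205Lu-R, which had 0 counts and are drawn at the foot of the axis; *CDKN1A* spans from 2.78 CPM in 451Lu-R with DMSO to 494 CPM in 1205Lu-R with corin.

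Among the INK4 genes, *CDKN2A* was the steady one. Its counts in 451Lu-R were 1554 and 1322 under DMSO and 1633 and 1387 under corin, or 140 ± 4.05 and 139 ± 0.13 CPM, and the CPM values of the corin libraries lay between those of the DMSO libraries. The fitted log2 fold change was 0.09 (95% interval 0.01 to 0.16, edgeR adjusted p = 0.0413). Scaling by library size alone turned it to -0.01 (edgeR adjusted p = 0.774) and DESeq2 gave 0.10 (adjusted p = 0.213), so its call was not stable. Without DMSO replicate 2, corin replicate 1 or corin replicate 2, the edgeR adjusted p was 0.337, 0.107 or 0.0901. Of its exonic bases, 593 are shared with the antisense RNA *CDKN2B-AS1*, which had 46 and 39 counts under DMSO and 48 and 49 under corin. Whether the counting used strand is not given in the sources used here.

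*CDKN2B* lies next to *CDKN2A* and encodes p15, known as a target of TGF-β signaling. In 451Lu-R its counts were 373 and 306 under DMSO and 2149 and 1734 under corin. The corin libraries lay far above the DMSO libraries, with a log2 fold change of 2.53 ± 0.052 (edgeR adjusted p = 2.65e-19), while its neighbor *CDKN2A* stayed within the DMSO range on the CPM scale.

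*CDKN2C* encodes p18. Its counts were 541 and 424 under DMSO and 134 and 131 under corin in 451Lu-R, and 366 and 374 against 110 and 125 in 1205Lu-R. It had the largest fall of the family in both lines. In log2 units it fell by 1.85 in 451Lu-R (SE 0.097, edgeR adjusted p = 7.33e-13) and by 1.66 in 1205Lu-R (SE 0.098, edgeR adjusted p = 1.01e-12). An antisense gene model shares 617 of its exonic bases and has no row in the table.

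*CDKN2D* encodes p19, and of the 3 members that rose in 1205Lu-R it rose least. Its counts were 69 and 73 under DMSO and 266 and 215 under corin in 451Lu-R, and 242 and 229 against 290 and 350 in 1205Lu-R. The groups did not overlap in either line. The log2 fold change was 1.77 ± 0.13 in 451Lu-R (edgeR adjusted p = 8.93e-11) and 0.44 ± 0.085 in 1205Lu-R (edgeR adjusted p = 7.00e-05).

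In all, 5 of 7 members were called higher at an adjusted p under 0.05 in 451Lu-R, where 41.3% of the genes tested were, and *CDKN2A* was among them. There 2 were called lower, against 38.6%. In 1205Lu-R, 3 of the 5 members tested were higher (40.4% of all genes) and 2 were lower (37.8%). Corin thus moved most of the transcriptome at this threshold, and being called sets no member apart. At a fold of 4 or more and an adjusted p under 0.001, the members called higher were *CDKN1A* and *CDKN2B* in 451Lu-R, 2 of 7 against 12.4% of all genes. In 1205Lu-R they were *CDKN1A* and *CDKN1C*, 2 of 5 against 11.3%. No member was called lower by that rule (0 of 7 against 2.72%, and 0 of 5 against 1.43%). The median log2 fold change of the members was 1.46 in 451Lu-R and 0.44 in 1205Lu-R, beside 0.03 over all genes tested in each line.

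**Figure D2:**
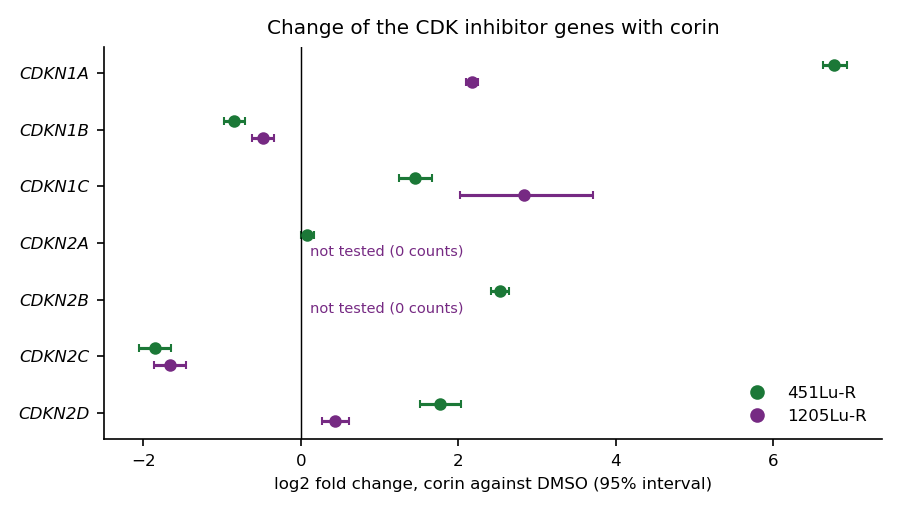
Log2 fold change of each CDK inhibitor gene with corin against DMSO, as points with 95% intervals from edgeR, in 451Lu-R (green) and 1205Lu-R (purple). The intervals come from the F statistic of each test, and that of *CDKN1A* in 451Lu-R is narrower than counting error would give. *CDKN1A* stands at 6.77 in 451Lu-R and 2.18 in 1205Lu-R, *CDKN1B* and *CDKN2C* lie left of 0 in both lines, and *CDKN2A* and *CDKN2B* had no counts to test in 1205Lu-R.

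The responses of the lines differed for 4 of the 5 members counted in both. For *CDKN1A* the log2 response in 1205Lu-R minus that in 451Lu-R was -4.63 (edgeR interaction term, adjusted p = 3.00e-18). With libraries left out singly this difference ran from -4.75 to -4.54. For *CDKN2D* it was -1.37 ± 0.15 (edgeR adjusted p = 7.67e-08). For *CDKN1C* it was 1.34 ± 0.40 (edgeR adjusted p = 0.0067), a larger factor in 1205Lu-R, where the DMSO counts were 6 and 4. The DMSO level is the base of each fold change, so level and response are not independent. For *CDKN1B* it was 0.33 ± 0.088 (edgeR adjusted p = 0.00368), a smaller fall in 1205Lu-R. *CDKN2C* gave 0.15 (95% interval -0.16 to 0.46, edgeR adjusted p = 0.427), so a difference between its falls was not detected within that interval. Among all genes 22.6% were called higher in this term and 27.1% lower. Without replicate 2 of 1205Lu-R under DMSO, the *CDKN1C* term was 1.09 and no longer passed (edgeR adjusted p = 0.0944).

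The same values can be read as levels in the lines before and after corin. Under DMSO, *CDKN1A* was 40.7-fold higher in 1205Lu-R than in 451Lu-R (log2 5.35, edgeR adjusted p = 1.40e-21). With libraries left out singly this log2 difference ran from 5.24 to 5.46. Under corin the gene was 1.64-fold higher (log2 0.71 ± 0.027, edgeR adjusted p = 3.84e-16). *CDKN2D* was 3.42-fold higher under DMSO and 1.32-fold higher under corin (edgeR adjusted p = 5.81e-12 and 0.000195). For *CDKN1C* the log2 difference of 1205Lu-R from 451Lu-R was -4.51 under DMSO and -3.17 under corin (edgeR adjusted p = 4.89e-13 and 4.06e-15). In each of these the lines stood closer with corin than without it.

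*CDKN1B* was lower in 1205Lu-R under DMSO (log2 difference -0.46, edgeR adjusted p = 2.16e-07). Under corin the difference was -0.13 (95% interval -0.27 to 0.01, edgeR adjusted p = 0.103). *CDKN2C* was lower there as well (-0.33, edgeR adjusted p = 0.000544), and under corin its difference was -0.18 (95% interval -0.44 to 0.08, edgeR adjusted p = 0.197). Over all genes, 38.2% were higher and 37.2% lower in 1205Lu-R under DMSO, and 38.0% and 39.0% under corin. The contrasts under DMSO and corin and the interaction term come from the same 8 libraries and are not independent.

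Among the members, the lines differed most at the INK4 locus on chromosome 9. With 0 counts in 1205Lu-R, *CDKN2A* was at least 505-fold higher in 451Lu-R under DMSO and at least 474-fold higher under corin, taking 3 counts per library as the floor. *CDKN2B* was at least 119-fold higher under DMSO and at least 608-fold higher under corin. Corin brought no count of either gene to 1205Lu-R. *CDKN2B-AS1* runs antisense across *CDKN2B* and overlaps *CDKN2A* only at its start. It had 183 counts over the 4 libraries of 451Lu-R and 4.51 over those of 1205Lu-R.

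Genes on either side were expressed in both lines. *MTAP*, an enzyme of methionine salvage whose start lies at -193 kb from that of *CDKN2A*, had 4363 counts over the 4 libraries of 451Lu-R and 6100 over those of 1205Lu-R. *DMRTA1*, at 452 kb on the other side, had 321 and 790, and *KLHL9*, at -660 kb, had 2495 and 2510. The INK4 pair without counts in 1205Lu-R thus lay between expressed genes. The stretch around it was not free of counts in every library, since ENSG00000264545, a long noncoding RNA annotated from the *MTAP* start across both genes, had 28.6 counts in corin replicate 2 of 1205Lu-R and 51.3 in corin replicate 1 of 451Lu-R, and 0 in the other libraries. *MTAP* shares its start, and how its reads were divided from those of this RNA was not tested. This window of 2000 kb on each side was chosen after the values were seen. From RNA counts, a lost gene and a silent gene cannot be told apart.

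**Figure D3:**
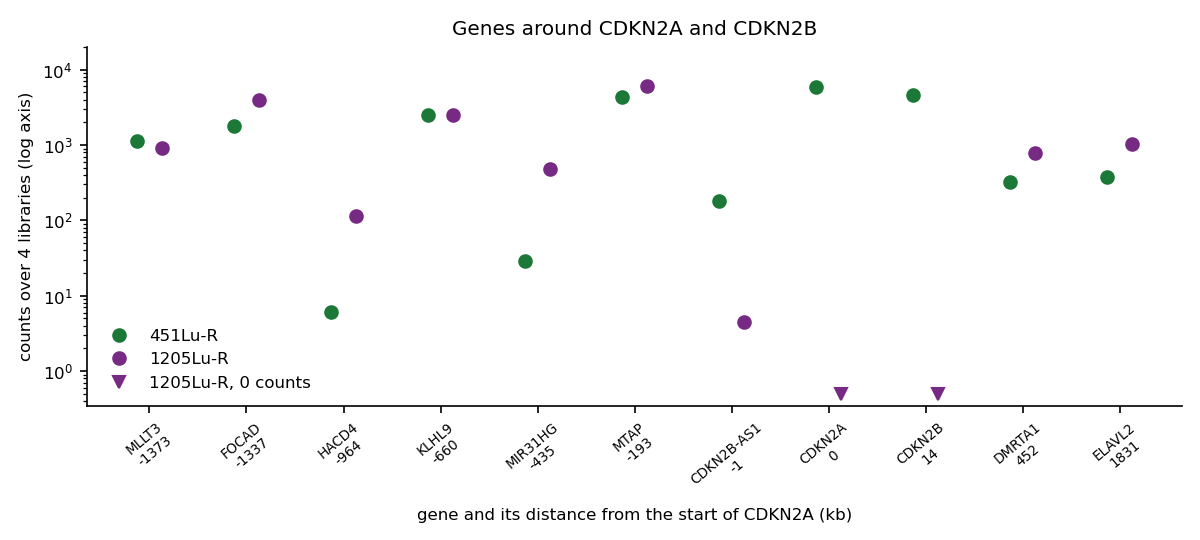
Counts summed over the 4 libraries of each line, on a log axis, for genes with at least 100 counts around *CDKN2A*, ordered by distance of their start from that of *CDKN2A* in kb. Triangles mark *CDKN2A* and *CDKN2B* in 1205Lu-R, at 0 counts, between *MTAP* (4363 and 6100 counts) and *DMRTA1* (321 and 790).

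To compare members with one another, counts were divided by exonic length and scaled to the same total of 1000000 in every library (TPM). In 451Lu-R under DMSO the order of mean levels was *CDKN2A* (143 TPM), *CDKN2C* (61.6), *CDKN2B* (32.8), *CDKN1B* (30.3), *CDKN1C* (18.7), *CDKN2D* (18.3) and *CDKN1A* (3.70). The values of *CDKN1C* and *CDKN2D* overlapped, and no other neighbors in this order did. Under corin *CDKN1A* went from last to first at 348 TPM, ahead of *CDKN2B* (163), *CDKN2A* (131), *CDKN2D* (53.7), *CDKN1C* (44.4), *CDKN2C* (14.9) and *CDKN1B* (14.5), of which the last pair overlapped.

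In 1205Lu-R *CDKN1A* was first in both groups, at 153 TPM under DMSO and 694 under corin. It was followed under DMSO by *CDKN2D* (63.7), *CDKN2C* (49.9), *CDKN1B* (22.5) and *CDKN1C* (0.817). Under corin *CDKN2D* stood at 86.6 TPM, *CDKN1B* at 16.2 and *CDKN2C* at 15.9, which overlapped, and *CDKN1C* at 5.96. The order depends on the length used. With the length of the canonical transcript alone, *CDKN2A* (297 TPM) rather than *CDKN1A* (281) was first in 451Lu-R under corin, and *CDKN2D* came after *CDKN2C* and *CDKN1B* rather than ahead of them in 1205Lu-R under DMSO.

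Summed over the 7 genes, the family rose from 308 ± 12.1 TPM (SD, n = 2) to 769 ± 6.47 in 451Lu-R and from 290 ± 4.16 to 818 ± 11.2 in 1205Lu-R. The CIP/KIP sum was 7.72-fold in 451Lu-R and 4.06-fold in 1205Lu-R. The INK4 sum was 1.42-fold in 451Lu-R and 0.903-fold in 1205Lu-R. These sizes depended on the length taken for each gene. With the canonical transcript's length in place of all exonic bases, the family stood at 532 and 501 TPM in the DMSO libraries of 451Lu-R and at 802 and 798 in the corin libraries, 1.55-fold on the means. In 1205Lu-R it was 2.33-fold. The CIP/KIP sum was then 4.37-fold and 3.54-fold, and the INK4 sum 1.03-fold and 0.653-fold. *CDKN1A* made up 1.08% and 1.33% of the family in the DMSO libraries of 451Lu-R and 45.1% and 45.3% in its corin libraries. With canonical lengths these shares were 0.491% and 0.607% under DMSO and 35.2% and 35.1% under corin, where *CDKN2A* made up 37.0% and 37.2%. In 1205Lu-R it made up 52.8% in both DMSO libraries and 84.7% and 84.8% in the corin libraries, or 41.7% and 41.2% and then 82.2% and 82.5% with canonical lengths.

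The sum of *CDK1*, *CDK2*, *CDK4* and *CDK6*, the kinases of the cycle, went the other way, from 752 ± 2.34 to 331 ± 5.61 TPM in 451Lu-R and from 525 ± 3.71 to 323 ± 5.41 in 1205Lu-R. Inhibitor transcripts per kinase transcript were 0.423 and 0.398 in the DMSO libraries of 451Lu-R and 2.31 and 2.34 with corin. In 1205Lu-R they were 0.544 and 0.561, then 2.54 and 2.53. Inhibitors were fewer than these kinases in every DMSO library and more in every corin library. With canonical lengths the ratio rose 3.29-fold rather than 5.66-fold in 451Lu-R, and 3.32-fold rather than 4.59-fold in 1205Lu-R. With 2 libraries a group these ratios were not tested, and transcript levels say nothing of protein.

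**Figure D4:**
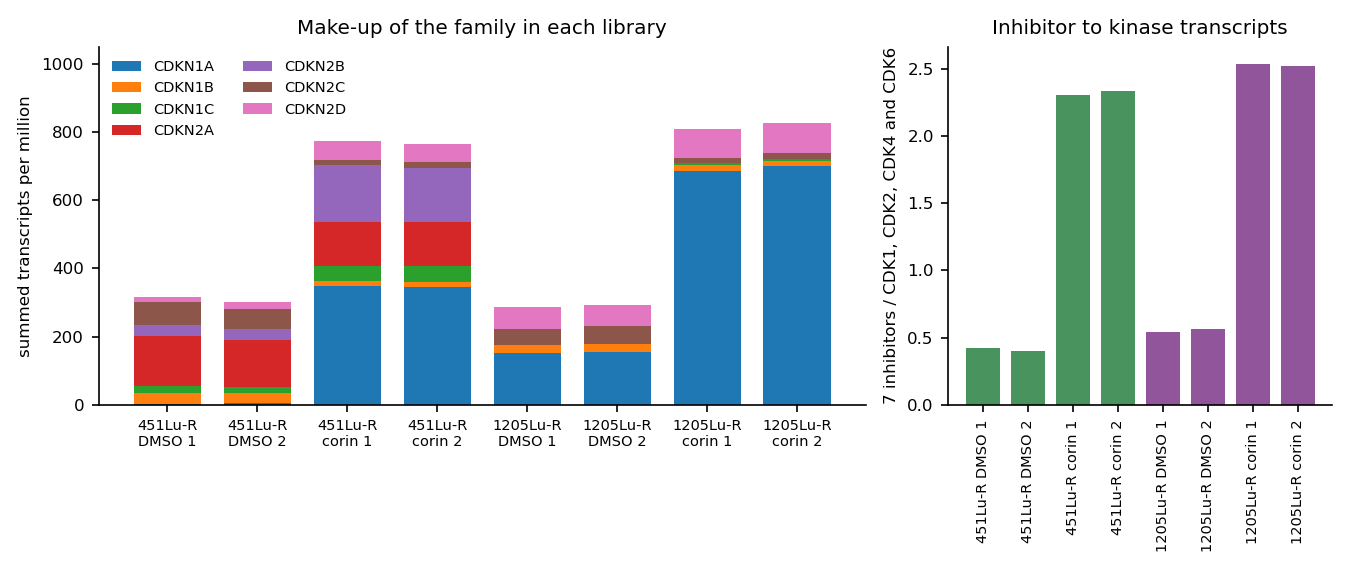
Left, summed TPM of the 7 CDK inhibitor genes in each library, stacked by gene; right, the ratio of that sum to the summed TPM of *CDK1*, *CDK2*, *CDK4* and *CDK6*. *CDKN1A* is the smallest block in 451Lu-R with DMSO (1.08% and 1.33%) and, by exonic length, the largest in every corin library, and the ratio goes from under 0.6 with DMSO to over 2 with corin in both lines.

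The list of G1 kinases and cyclins, 15 genes, is wider than its name and than the targets of the inhibitors. It also holds *CDK1*, *CCNA2*, *CCNB1*, the phosphatase *CDC25A*, and *CDK7*, *CCNH* and *MNAT1* of the kinase that activates CDKs. All 15 were called in 451Lu-R, 5 higher and 10 lower, with a median log2 fold change of -0.51. In 1205Lu-R 4 were higher, 10 lower and 1 was not called, with a median of -0.53. *CDK4* fell by 2.04 in 451Lu-R (SE 0.052) and by 1.47 in 1205Lu-R (SE 0.043), *CDK6* by 0.51 and 1.90, and *CDK2* by 0.74 and 1.23, all on the log2 scale. The phosphatase *CDC25A*, which removes the brake phosphates from CDK2, fell by 2.81 and 2.82, and *CCNE2*, a cyclin of CDK2, by 2.30 and 2.63. *CCNE1*, the other E-type cyclin, fell by 0.89 and 1.14. *MNAT1*, part of the kinase that activates CDKs, rose by 0.77 in 1205Lu-R.

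The 3 cyclin D genes moved in different ways. *CCND1* averaged 333 ± 11.7 CPM under DMSO and 1255 ± 4.97 under corin in 451Lu-R, a log2 rise of 2.01 ± 0.023 (edgeR adjusted p = 4.08e-23). In 1205Lu-R it averaged 997 ± 13.3 and 862 ± 11.5 CPM and fell by 0.28 (SE 0.021, edgeR adjusted p = 5.50e-11). The difference between these responses was -2.33 ± 0.035 (edgeR adjusted p = 5.90e-22). *CCND2* had 0 counts in all DMSO libraries and was at least 42.3-fold higher with corin in 451Lu-R and at least 36.1-fold higher in 1205Lu-R. *CCND3*, named here after its values were seen, rose by 0.20 in 451Lu-R (edgeR adjusted p = 0.0163) and fell by 0.53 in 1205Lu-R (edgeR adjusted p = 2.75e-10), a difference of -0.77 ± 0.079 (edgeR adjusted p = 4.49e-08). *CDK1*, also named after its values were seen, moved by -0.37 in 451Lu-R and 0.68 in 1205Lu-R (difference 1.01 ± 0.069, edgeR adjusted p = 7.02e-11).

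Of the 13 pocket proteins and E2F factors, 2 were higher and 9 lower in 451Lu-R (median -0.98), and 3 were higher and 9 lower in 1205Lu-R (median -0.87). *RB1*, the substrate that the brakes protect, rose by 1.02 in 451Lu-R (SE 0.043) and fell by 0.26 in 1205Lu-R (SE 0.051). The activator *E2F3* and the repressor *E2F4* fell most in 451Lu-R, by 2.54 and 1.74. *E2F2* and *E2F1* fell most in 1205Lu-R, by 1.93 and 1.30. *E2F6*, a repressor that does not need RB1, rose by 0.48 and 0.40, and *E2F5* rose by 1.46 in 1205Lu-R.

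Of the 13 genes for turnover of p21 and p27 proteins, 4 were higher and 8 lower in 451Lu-R (median -0.47), and 2 were higher and 10 lower in 1205Lu-R (median -0.50). *SKP2*, which brings p27 to its ubiquitin ligase, fell by 1.48 in 451Lu-R (SE 0.088) and by 0.34 in 1205Lu-R (SE 0.065). Its partner *CKS1B* fell by 1.41 in 451Lu-R. *DTL*, which marks p21 for destruction on replicating DNA, and *CUL4A*, the scaffold it works with, fell by 2.16 and 1.16 in 1205Lu-R. In 451Lu-R they fell by 1.25 and 0.72. *RNF123*, a ligase for p27, rose by 0.52 and 0.85. *MDM2*, itself a ubiquitin ligase, rose by 0.43 in 451Lu-R and, named there after its values were seen, fell by 0.65 in 1205Lu-R (difference -1.12 ± 0.073, edgeR adjusted p = 2.51e-11). *SKP1* rose by 0.11 in 1205Lu-R.

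**Figure D5:**
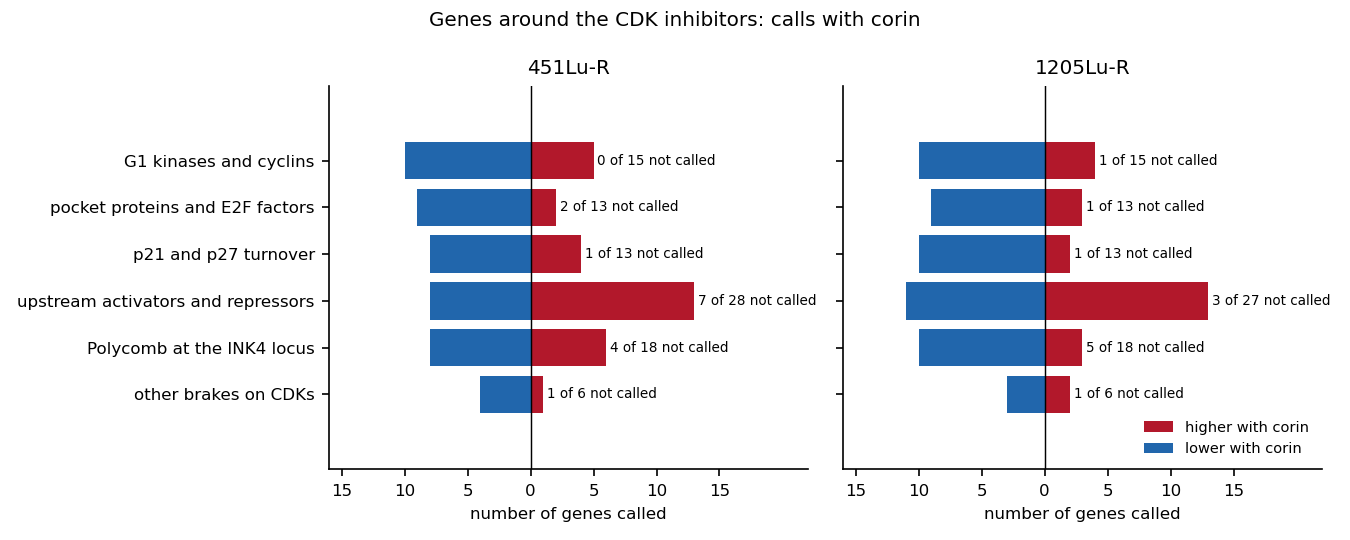
Numbers of genes called higher (red, to the right) or lower (blue, to the left) with corin at an adjusted p under 0.05 in 6 lists of genes around the CDK inhibitors, in 451Lu-R and 1205Lu-R, with the number not called printed beside each bar. The list labeled G1 kinases and cyclins had 10 lower against 5 and 4 higher, and the upstream activators and repressors had 13 higher in each line.

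Factors known to act on CIP/KIP or INK4 promoters numbered 28, of which 13 were higher and 8 lower in 451Lu-R (median 0.13), and 13 higher and 11 lower of 27 tested in 1205Lu-R (median 0.26). Of the genes tested as a whole, 41.3% were higher and 38.6% lower with corin in 451Lu-R. For 1205Lu-R these shares were 40.4% and 37.8%, and the counts of every list here are set against them. *MYC*, a repressor of *CDKN1A* and *CDKN2B*, averaged 251 ± 0.030 CPM under DMSO and 36.3 ± 2.61 under corin in 451Lu-R. It fell by 2.69 there (SE 0.046, edgeR adjusted p = 1.36e-20) and by 0.28 in 1205Lu-R (SE 0.059, edgeR adjusted p = 0.000212), and the responses differed by 2.38 ± 0.078 (edgeR adjusted p = 2.73e-16). *TFAP4*, which represses *CDKN1A*, fell by 2.66 and 1.63.

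*KLF4*, an activator of *CDKN1A*, rose by 5.14 in 451Lu-R, from a mean of 0.516 to 18.0 CPM. Its DMSO libraries there held 0.825 and 0.207 CPM, the latter under the floor of 3 counts, so the size of this rise is uncertain. It rose by 1.03 in 1205Lu-R (SE 0.080), a difference of -4.15 (edgeR adjusted p = 1.39e-10). *MYC* and *KLF4* thus changed by more in 451Lu-R, while other genes of the list did not. *EGR1* fell by 0.95 in 451Lu-R and rose by 2.43 in 1205Lu-R (difference 3.34, edgeR adjusted p = 2.79e-19). *FOXO1* rose by 2.70 and 2.98. *EGR1* and *FOXO1* are named after their values were seen. The neuroendocrine repressor *INSM1* had 2 and 0 counts under DMSO and 42 and 28 under corin in 451Lu-R, a ratio of 33.0 per library total with an exact 95% counting interval of 8.81 to 278. In 1205Lu-R it had 0 counts under DMSO and was at least 7.40-fold higher with corin. In 1205Lu-R *FOXO4* rose by 3.43, against 0.18 in 451Lu-R (edgeR adjusted p = 0.243). *SMAD3*, of the TGF-β pathway, fell by 0.97 in 1205Lu-R. Their part in the members' changes was not tested.

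Of 18 Polycomb and related genes that act at the INK4 locus, 6 were higher and 8 lower in 451Lu-R (median -0.08), and 3 higher and 10 lower in 1205Lu-R (median -0.25), against the same shares of the genes tested as a whole. The reader subunits *CBX8* and *CBX7* rose, the former by 0.87 in 451Lu-R and the latter by 1.44 in 1205Lu-R. *PCGF2*, a core subunit, fell by 1.68 and 1.46, the histone demethylase *KDM2B* fell by 1.36 in 451Lu-R, and *PHC1* fell by 0.99 in 1205Lu-R. Of 6 genes listed as other brakes on CDKs, 1 was higher and 4 lower in 451Lu-R (median -0.98), and 2 higher and 3 lower in 1205Lu-R (median -0.63). *PKMYT1*, a kinase that blocks CDK1, fell by 1.62 and 1.77, and *CDK2AP1*, which binds CDK2, by 1.49 and 1.25. *CDKN2AIP*, the gene higher in 451Lu-R, rose by 1.20 and 0.24. It encodes an interacting protein of *CDKN2A* and not a CDK inhibitor. The phosphatase *CDKN3* rose by 0.76 in 1205Lu-R and, named there after its values were seen, fell by 0.49 in 451Lu-R (difference 1.22 ± 0.088, edgeR adjusted p = 1.69e-10).

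Genes within 100 kb of a member's start were counted beside it. At a fold of 4 or more and an adjusted p under 0.001, the neighbors called other than members were *PHLDA2* alone, 43.6 kb from *CDKN1C* in the same imprinted cluster. It had 110 and 80 counts under DMSO and 604 and 512 under corin in 451Lu-R, a log2 rise of 2.57 (edgeR adjusted p = 2.53e-15). In 1205Lu-R *PHLDA2* rose by 1.19, and *SLC22A18*, 13.9 kb from *CDKN1C*, rose by 0.61 in 451Lu-R and also rose in 1205Lu-R (edgeR adjusted p = 1.63e-05). Around *CDKN1C*, itself higher in both lines, 2 of 2 neighbors tested were thus higher in 451Lu-R, while in 1205Lu-R there were 2 higher and 1 lower of 3. Around *CDKN1B*, which fell, *CREBL2* fell by 1.01 and 1.10 and 1 of 3 neighbors tested was lower in each line. In 1205Lu-R 1 of the 3 was higher, *APOLD1* at 40.4 kb, which rose by 1.02 (edgeR adjusted p = 2.17e-07). *SLC22A18*, *CREBL2* and *APOLD1* are named after their values were seen. Whether these counts differ from the shares of all genes given above was not tested. Around *CDKN1A*, 1 of 5 neighbors had counts enough to test, and it was lower in both lines. The antisense RNA *DINOL*, which shares 146 exonic bases with *CDKN1A*, had 0 counts in 451Lu-R and at most 5 in a library of 1205Lu-R. Around *CDKN2D*, 3 of 7 neighbors tested were higher and 3 lower in 451Lu-R, and 2 of 8 were higher and 5 lower in 1205Lu-R.

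Likeness of pattern was measured as the root mean square difference of log2 CPM, each gene centered on its own mean over the 8 libraries, among 14393 genes. Among the 3 genes most like *CDKN1A* were *BMP2* (0.32 log2 units apart, where *CDKN1A* itself varied by 2.87 about its mean) and *ATP2A3* (0.35). *CDKN2C* was closest to *TYMS*, thymidylate synthase (0.11), *ZBTB47* (0.13) and *MAP3K6* (0.14). *CDKN1B* was closest to *SRPX* (0.051), *SPR* (0.058) and *NOL10* (0.071), and *CDKN2D* to *FAT1* (0.062), *ANXA2* (0.079) and *BAG3* (0.083). *CDKN1C* was closest to *NPL* (0.26), *HMOX1* (0.27) and *GRIK2* (0.27). The genes nearest *CDKN2A* were *MAGEA3* (0.28), *TRIM63* (0.29) and *BCAN* (0.37), and those nearest *CDKN2B* were *PMP2* (0.28), *TDRP* (0.46) and *LUM* (0.47). With 4 groups of 2 libraries, likeness describes mainly the 4 group means.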

How the data were processed

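For RNA-Seq of 451Lu-R and 1205Lu-R cells, reads were trimmed by the authors (trimmomatic), assigned by salmon to GENCODE v32 transcripts and added up per gene, with tool versions not given in the sources used here. The deposited values are expected counts, that is salmon estimates, with no normalization. The tables for PLX4032 libraries hold the authors' own log2 fold changes, adjusted p-values and symbols, and were not used. Symbols, overlaps and exonic lengths came from GENCODE 44 (34052 of 34228 genes matched), promoters from RefSeq (GRCh38.p14). The members, lists and tests were chosen with earlier results of these data known.

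Counts were rounded and tested with edgeR 4.0.16 in R 4.3.3 (filterByExpr, TMM, glmQLFit, glmQLFTest, 2-sided, Benjamini-Hochberg adjustment over 14530, 14563 or 16062 genes). Corin was compared with DMSO on the 4 libraries of a line. Interaction and line contrasts used all 8. TMM factors lay between 0.962 and 1.05. An adjusted p under 0.05 made a call. The text names every member and, per list and line, at most 2 genes called higher and 2 lower with the largest change, a mean of at least 1 CPM and no overlap between groups, besides *CDK2*, *CDK4*, *CDK6*, *CCND1*, *CCNE1* and *CCNE2*. Neighbors called at 4-fold were also named. For some genes the value in the line where the rule did not name them is given too, after it was seen. Alternatives were DESeq2 1.42.0, other scalings and filters, a replicate block, canonical transcript lengths, all libraries in one fit and leaving out each library. The fits were tested on simulated counts. Intervals cover the spread between libraries and floors cover counting error only. SEs and intervals of the edgeR fits were taken from the fold change and the F statistic of each test. For large changes from few counts they can be narrower than counting error. A few genes that the rule would name, and 1 list, are not reported here.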

Additional observations from a re-analysis of the deposited data

Results flagged for a closer look

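The response to corin differed between 451Lu-R and 1205Lu-R for 4 of the 5 members counted in both, by the edgeR interaction term on 8 libraries. Of all genes tested, 22.6% were called higher and 27.1% lower in that term, so being called sets no member apart. As the log2 response in 1205Lu-R minus that in 451Lu-R, the difference was -4.63 for *CDKN1A*, -1.37 for *CDKN2D*, 1.34 for *CDKN1C* and 0.33 for *CDKN1B*. Leaving out libraries singly, that of *CDKN1C* ran from 1.09 to 1.62. *CDKN1A* and *CDKN2D* rose in every corin library of both lines, and by less in 1205Lu-R, which held more of both transcripts under DMSO. That level is also the base of the fold change, so the 2 are not independent.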

How the results depend on the processing

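Across the alternatives, 334 log2 fold changes of members kept their direction and their side of the threshold, 6 no longer passed it, 1 newly passed it and 1 changed sign. Those that no longer passed were *CDKN2A* in 451Lu-R in 5 cases (DESeq2, no filter, and without replicate 2 of DMSO or replicate 1 or 2 of corin) and the *CDKN1C* difference between the lines without replicate 2 of 1205Lu-R under DMSO. *CDKN2A* stood at -0.012 under scaling by library size only. The *CDKN2C* difference between the lines newly passed there, at 0.36 (edgeR adjusted p = 0.0442). That scaling moved the median of all genes in the interaction term from -0.01 to 0.20 and the share of its calls that were higher from 45.4% to 64.0%. Leaving out libraries singly, the interaction term called from 1 to 2 members higher. With the replicate block, the log2 rise of *CDKN1A* was 6.77 in 451Lu-R and 2.17 in the other line, and no call on a member changed. Libraries with the same number did not deviate together (r of -0.023 and 0.0076), so the numbers were not taken as pairs. With 2 libraries per group, 0 counts of *CDKN2A* and *CDKN2B* in 1205Lu-R are read only against a floor of 3 counts.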
